A study of Arabidopsis thaliana with 12 samples.

Results

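Marbled gun1-102 cotyledons (gun1M) were compared with the wild type Col-0 by the RNA of 4-day-old Arabidopsis thaliana seedlings, with 3 libraries each, that is 6 of the 12 libraries of the series. The libraries were chosen by the names of their columns, and the comparison was made over 17675 nuclear gene models among 18373 gene models tested outside the plastid. The remaining libraries, 3 of gun1-102 seedlings with white cotyledons (gun1W) and 3 with green cotyledons (gun1G), shared 1 fit with them and served to place the marbled seedlings. gun1M, gun1W and gun1G all carry gun1-102, the T-DNA line SAIL_290_D09 in the Col-0 background, so the groups of the mutant differ by the look of the cotyledons they were sorted for. Col-0 carries the intact gene. All seedlings grew at 22 °C on medium with 1% sucrose, in days of 16 h light (100 µmol m-2 s-1) and 8 h dark. The labels name cotyledons as the tissue, whereas the methods speak of seedlings. The column names call the replicates Biorep, but no source used here says whether they came from separate sowings. The p-values rest on the spread within the groups over all 12 libraries, which may be partly technical.

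GUN1 is a pentatricopeptide repeat protein of the plastid that takes part in retrograde signaling, the route by which the state of the plastid reaches nuclear transcription. Seedlings without it mostly green normally, and some form pale or mosaic cotyledons. Marbled cotyledons show green and pale areas side by side, so a library of such tissue averages over unlike cells. In bulk RNA, fewer cells of a type and less RNA per cell cannot be told apart.

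Values are TPM (transcripts per 1000000) added up over the transcripts of a gene model and scaled so that the median nuclear gene is level across libraries. Differences are log2 differences of scaled TPM + 1, gun1M minus Col-0, which understate the change of genes with low values. A gene model was called at a limma adjusted p under 0.05 over all 18373 models and a difference of at least 2-fold. Since TPM does not record how deeply a library was read, the depth is unknown. Between 15831 and 17059 gene models had a TPM of at least 1 in the gun1M libraries, against 15439 to 16047 in Col-0.

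Replicate 3 of gun1M stood apart before any gene was tested. Nuclear transcripts made up 37.6, 39.1 and 53.2% of TPM in gun1M replicates 1, 2 and 3, against 40.6 to 43.5% in Col-0. The transcript AT3G06365 alone held 1.16, 0.745 and 10.5% of TPM in the gun1M libraries and 5.71 to 8.46% in Col-0. It is counted within the nuclear shares above. Those shares therefore do not show how the remaining nuclear transcripts compare between the libraries. Plastid transcripts held 34.6, 34.4 and 27.7% in gun1M, against 34.5 to 37.8% in Col-0. GUN1 itself, which the insertion targets, had 25.7, 24.5 and 36.0 scaled TPM in gun1M, against 46.1, 44.0 and 46.4 in Col-0. Every gun1M library was below every Col-0 library, but transcript assigned to the gene was present in all of them. The difference of −0.67 (SE 0.197, limma adjusted p = 0.026) fell short of 2-fold. A value summed over a gene model does not show where in the gene its reads lie. The paper reports that reads were absent from part of an early exon and from all exons after it in the mutant seedlings. The summed values therefore do not measure intact transcript.

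In the comparison of gun1M with Col-0, 1322 nuclear gene models (7.48%) were higher and 957 (5.41%) were lower. Their median differences were 1.47 and −1.32, with 299 models at least 4-fold higher and 113 at least 4-fold lower. At least 8-fold differences were 75 increases and 19 decreases. All 3 gun1M libraries lay above all 3 Col-0 libraries in 3955 nuclear models (22.4%) and below them in 3857 (21.8%). Of the called models, 1303 increases and 933 decreases were of that kind. Increases were 58.0% of the calls on the scale used here, but 77.5% (1767 higher and 514 lower) with TPM as deposited and 73.7% (1774 higher and 634 lower) when nuclear genes were summed to the same total. These scalings put the median nuclear gene at 0.19 and 0.16 above Col-0, against −0.01 here. The summed nuclear total includes AT3G06365. Leaving out gun1M replicate 2 lowered the count of decreases to 595, with 1113 increases.

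The groups of genes with the largest shares of increases were heat shock proteins, the mitochondrial retrograde response, jasmonate genes, galactinol synthesis, cold- and ABA-responsive genes and stress-related zinc finger, ERF and WRKY factors. Decreases gathered in the lists of amino acid breakdown, dark and sugar starvation genes and auxin response. Genes for the photosystems, light harvesting and the plastid ribosome were mostly neither. The bar plot of called shares sets these lists beside the nuclear genome. Where no member of a list was called lower, limma gave at an unadjusted p under 0.05 no decrease among small heat shock proteins, cytosolic chaperones, mitochondrial retrograde, jasmonate, zinc finger and ERF, galactinol, flavonoid and wax genes. It gave 1 decrease each among heat shock factors, WRKY factors and light stress proteins, 2 each among cold and ABA genes and antioxidant enzymes, and 4 among light harvesting proteins. Photosystem I subunits and amino acid breakdown genes had no increase at that p, and starvation genes had 1. Such a p was common, as 7504 of all 17675 nuclear models had an unadjusted limma p under 0.05 in either direction.

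**Figure D1:**
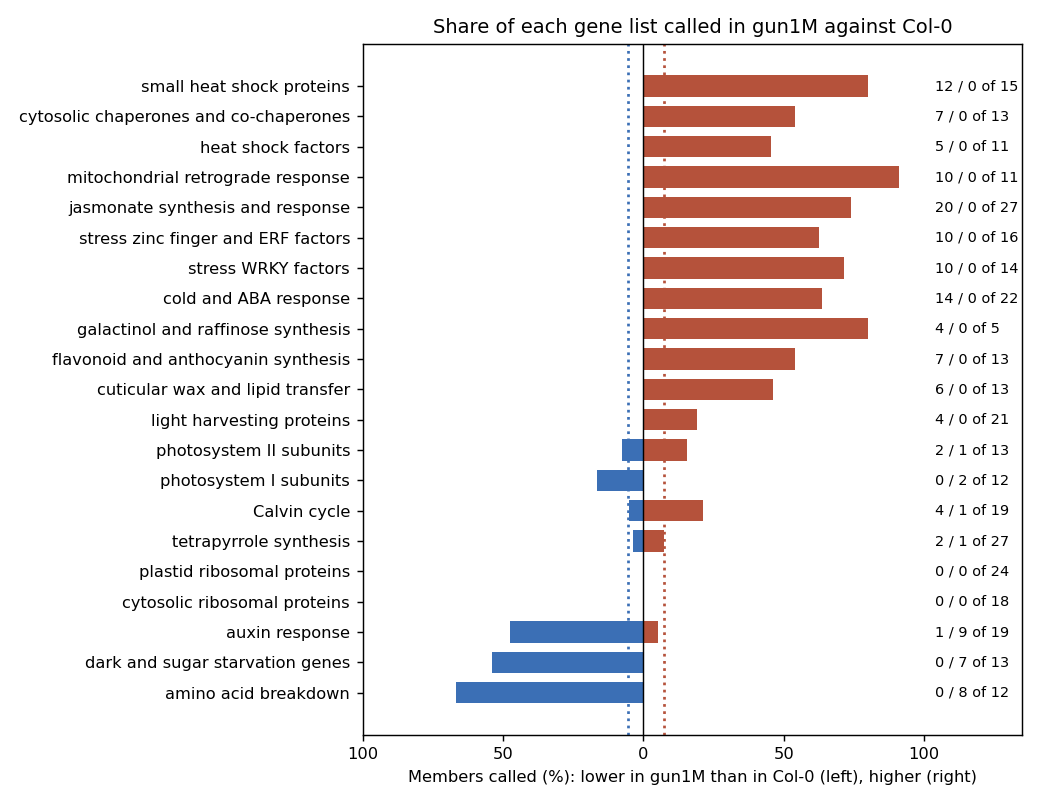
Percent of the measured members of each gene list called higher (right) or lower (left) in gun1M than in Col-0, with the 7.48% and 5.41% of all 17675 nuclear gene models as dotted lines. Among small heat shock proteins 12 of 15 were higher, and among amino acid breakdown genes 8 of 12 were lower.

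Small heat shock proteins keep unfolded proteins soluble under heat and other stress. Of 15 measured members, 12 were higher in gun1M than in Col-0 and none was lower, with a median difference of 2.61. HSP21, a small heat shock protein of the plastid, had 34.0, 20.1 and 33.9 scaled TPM in gun1M, against 0.0609, 0 and 0 in Col-0. HSP18.2, a cytosolic member, had 37.8, 27.8 and 82.1 scaled TPM in gun1M, against 0.615, 0.106 and 1.90 in Col-0. Both genes were high in all 3 marbled libraries and nearly silent in all 3 wild-type libraries, with no overlap. The difference was 4.86 (SE 0.243, limma adjusted p = 1.55e-06) for HSP21 and 4.71 (SE 0.459, limma adjusted p = 6.88e-05) for HSP18.2. The gene model AT1G07400 (HSP17.8), by contrast, had 0.808, 12.1 and 36.0 scaled TPM in gun1M, against 0.783, 1.21 and 0.286 in Col-0. Replicate 1 of gun1M lay among the Col-0 values there, and the difference of 2.48 was not called (limma adjusted p = 0.0565). Small heat shock genes are alike in sequence, so reads could be shared between copies.

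The first 250 bases before HSP21 are shown, as it had the smallest adjusted p of the list and its window holds the marked motif. They lie at chr4:13819972-13820221 on the minus strand of TAIR10.1 (RefSeq), and the capitals mark GAANNTTC, the heat shock element pair.

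HSP21: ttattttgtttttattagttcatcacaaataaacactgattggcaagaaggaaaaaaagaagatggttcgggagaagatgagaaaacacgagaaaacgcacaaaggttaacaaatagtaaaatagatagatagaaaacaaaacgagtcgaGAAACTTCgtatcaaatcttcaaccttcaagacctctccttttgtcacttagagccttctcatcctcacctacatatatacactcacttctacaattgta

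This letter pattern, searched on both strands, begins 100 bases before the gene start of HSP21. It was found in the same window of 4 of the 15 small heat shock genes (26.7%), of 13.2% of the models called higher, of 8.3% of those called lower and of 9.2% of all nuclear models tested. The window of HSP18.2 holds none.

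Cytosolic chaperones followed the small heat shock proteins, and with them gun1M replicate 3. Of 13 measured chaperones and co-chaperones, 7 were higher and none was lower, with a median difference of 1.49. HSP70, a chaperone that folds and refolds proteins, had 23.3, 67.0 and 144 scaled TPM in gun1M, against 3.13, 3.45 and 3.67 in Col-0. HSP101, which takes protein aggregates apart, had 2.42, 10.1 and 24.7 scaled TPM in gun1M, against 0.720, 0.345 and 0.654 in Col-0. HSP90.1, a chaperone of signaling proteins, had 4.76, 11.1 and 46.1 scaled TPM in gun1M, against 0.964, 0.691 and 1.68 in Col-0. In each of the 3 genes replicate 1 of gun1M was the lowest and replicate 3 the highest marbled library, and none overlapped Col-0. The differences were 3.81, 2.67 and 2.84 (SE 0.491, 0.602 and 0.595, limma adjusted p = 0.000386, 0.00774 and 0.00537). Among 11 heat shock factors, the regulators of these genes, 5 were higher and none was lower, with a median of 0.91. With 5 added before the log none was called and the median was 0.45. HSFA2 had 0.941, 3.19 and 7.93 scaled TPM in gun1M, against 0.0345, 0 and 0.0964 in Col-0, a difference of 2.00 (SE 0.431, limma adjusted p = 0.00621). Without gun1M replicate 3, 3 heat shock factors were higher and 1 was lower.

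By the median range of a member over the gun1M libraries, small heat shock proteins (2.72) and cytosolic chaperones (2.28) were the most variable of the 55 lists, against 0.502 over all nuclear models. The list median relative to the Col-0 mean was 1.31, 2.80 and 4.43 in gun1M replicates 1, 2 and 3 for small heat shock proteins, and 0.36, 1.4 and 2.56 for cytosolic chaperones. Replicate 3 held the highest marbled value in 14 of 15 small heat shock genes and in all 13 chaperones, against 37.8% of all nuclear models. It also had the most nuclear TPM of the marbled libraries and the most AT3G06365, which is counted within the nuclear TPM. Their part in this order was not tested. Without replicate 3, 10 of 15 small heat shock genes were still higher, with a median of 1.85.

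**Figure D2:**
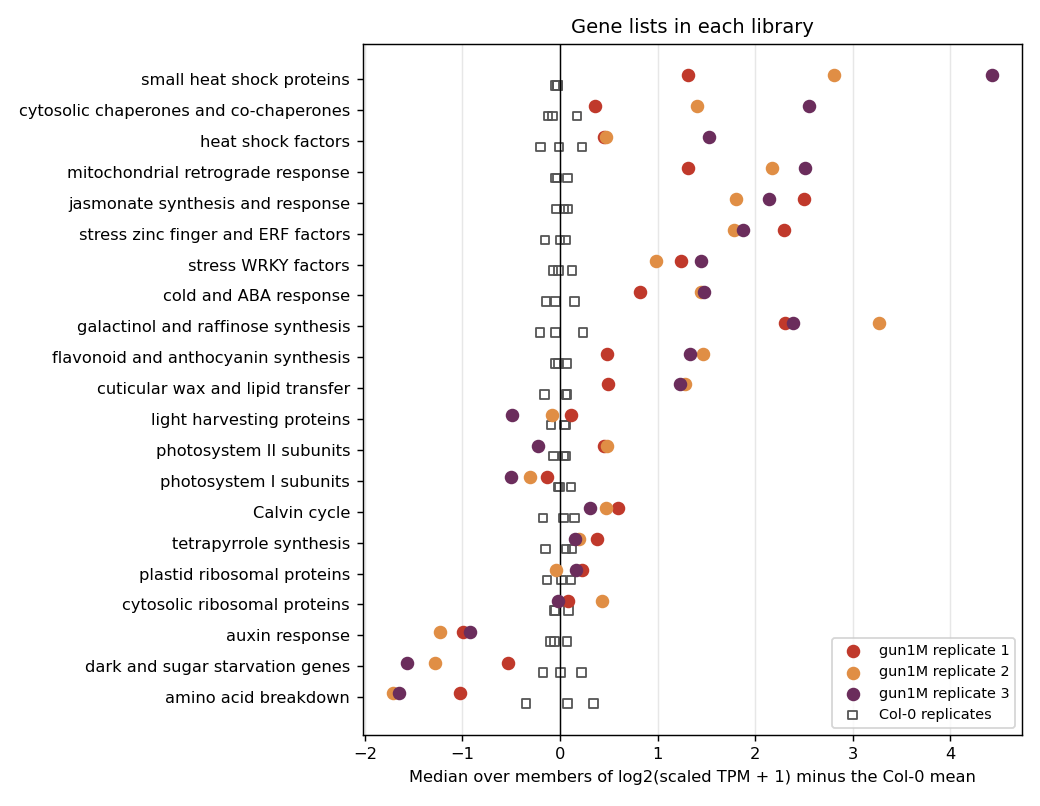
Median log2 difference from the Col-0 mean over the measured members of each gene list, for each of the 3 gun1M libraries and each of the 3 Col-0 libraries. The gun1M libraries lie between 1.31 and 4.43 for small heat shock proteins and between −1.03 and −1.72 for amino acid breakdown.

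Jasmonate synthesis and response held the largest number of calls among the lists. Jasmonate is a lipid-derived hormone of wounding and defense made from plastid membrane lipids, and its first steps take place in the plastid. Of 27 measured members, 20 were higher in gun1M and none was lower, with a median of 2.16. LOX3, a lipoxygenase at the start of the pathway, had 19.9, 13.4 and 16.1 scaled TPM in gun1M, against 0.374, 0.466 and 0.846 in Col-0. AOS, allene oxide synthase, had 63.9, 106 and 74.3 scaled TPM in gun1M, against 12.5, 17.43 and 13.3 in Col-0. AOC3, an allene oxide cyclase, had 63.0, 80.8 and 96.8 scaled TPM in gun1M, against 6.04, 5.21 and 3.76 in Col-0. For all 3 enzymes every marbled library exceeded every wild-type library several-fold. The differences were 3.47, 2.40 and 3.75 (SE 0.336, 0.210 and 0.318, limma adjusted p = 6.37e-05, 3.69e-05 and 2.96e-05). CYP94C1, which oxidizes the active hormone in its breakdown, had 14.8, 9.66 and 6.79 scaled TPM in gun1M, against 0.273, 0.666 and 0.180 in Col-0, a difference of 3.01 (SE 0.282, limma adjusted p = 5.89e-05). Genes of hormone synthesis and of hormone breakdown were thus higher in the same libraries. AOC3 has close copies, so its reads could be shared.

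The window before AOS is shown because AOS had the smallest adjusted p of the jasmonate genes whose window holds the marked motif. It lies at chr5:17099596-17099845 on the minus strand of TAIR10.1 (RefSeq), and the capitals mark CACGTG, the G-box.

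AOS: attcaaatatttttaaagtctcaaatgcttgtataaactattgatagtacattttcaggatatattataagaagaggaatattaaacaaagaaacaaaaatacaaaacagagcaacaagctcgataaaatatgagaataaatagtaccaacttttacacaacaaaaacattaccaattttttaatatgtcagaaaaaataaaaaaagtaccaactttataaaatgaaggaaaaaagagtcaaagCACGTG

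The G-box begins 6 bases before the gene start of AOS. It was present in the windows of 6 of the 27 jasmonate genes (22.2%), of 11.6% of the models called higher, of 7.7% of those called lower and of 7.5% of all nuclear models tested.

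JAZ7, a repressor of jasmonate signaling, had 118, 8.54 and 6.85 scaled TPM in gun1M, against 2.94, 1.92 and 3.5 in Col-0. Replicate 1 alone was far above the others, and although the groups did not overlap, the difference of 2.48 was not called (SE 1.07, limma adjusted p = 0.0986). DDF1, an AP2-type transcription factor, repeated this pattern with 23.8, 0.950 and 0.626 scaled TPM in gun1M, against 0.137, 0 and 0 in Col-0. The order of the marbled libraries thus depended on the gene, with replicate 1 highest for JAZ7 and DDF1 and replicate 3 highest for the chaperones. In 15 of the 27 jasmonate genes, replicate 1 was the highest marbled library.

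The mitochondrial retrograde response is the set of nuclear genes induced when mitochondrial electron transport is disturbed. Of 11 measured members, 10 were higher in gun1M and none was lower, with a median of 1.78 and list medians of 1.31, 2.17 and 2.51 in gun1M replicates 1, 2 and 3. UCP5 (DIC1), a dicarboxylate carrier of the inner mitochondrial membrane, had 93.8, 86.7 and 89.6 scaled TPM in gun1M, against 4.50, 4.96 and 3.15 in Col-0. Its marbled libraries were among the most alike of the genes named here, all far above Col-0. The difference was 4.14 (SE 0.233, limma adjusted p = 2.01e-06). DIC2, a second carrier of this kind, had 27.0, 14.1 and 17.1 scaled TPM in gun1M, against 2.02, 1.74 and 1.2 in Col-0, a difference of 2.91 (SE 0.367, limma adjusted p = 0.000337). NDA1, an alternative NAD(P)H dehydrogenase, had 9.78, 13.7 and 11.3 scaled TPM in gun1M, against 2.93, 3.05 and 4.11 in Col-0, a difference of 1.53 (SE 0.174, limma adjusted p = 0.000176). BCS1, an AAA-type ATPase of the mitochondrion, had 4.83, 8.87 and 15.5 scaled TPM in gun1M, against 0.928, 0.668 and 0.595 in Col-0, a difference of 2.51 (SE 0.403, limma adjusted p = 0.00129). With 5 added before the log, 5 of the 11 genes were called.

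The window before UCP5 is shown because UCP5 led this list and its window holds the marked motif. It lies at chr2:9564851-9565100 on the minus strand of TAIR10.1 (RefSeq), and the capitals mark the W-box TTGACT on the opposite strand.

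UCP5: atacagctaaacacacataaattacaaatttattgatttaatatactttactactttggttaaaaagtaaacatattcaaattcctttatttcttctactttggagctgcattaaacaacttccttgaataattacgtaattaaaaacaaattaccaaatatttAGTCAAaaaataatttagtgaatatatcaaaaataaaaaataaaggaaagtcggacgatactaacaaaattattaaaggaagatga

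A W-box (TTGACC or TTGACT on either strand) was present in the windows of 6 of the 11 genes of the mitochondrial retrograde list (54.5%) and of 8 of the 14 stress WRKY genes (57.1%). The share was 33.4% of the models called higher, 22.9% of those called lower and 28.1% of all nuclear models tested.

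Stress-responsive transcription factors were higher in gun1M with them. Of 16 zinc finger and ERF factors, 10 were higher and none was lower (median 1.75), and of 14 stress WRKY factors, 10 were higher and none was lower (median 1.17). STZ, a zinc finger repressor of salt and light stress responses, had 43.3, 23.9 and 24.6 scaled TPM in gun1M, against 0.929, 0.762 and 0.534 in Col-0, a difference of 4.13 (SE 0.228, limma adjusted p = 2.01e-06). ERF4, an ethylene-responsive repressor, had 69.6, 52.8 and 27.9 scaled TPM in gun1M, against 6.25, 4.17 and 3.84 in Col-0, a difference of 3.08 (SE 0.295, limma adjusted p = 6.10e-05). WRKY40, a pathogen-responsive regulator, had 38.6, 8.47 and 17.2 scaled TPM in gun1M, against 1.38, 0.434 and 1.04 in Col-0, a difference of 3.31 (SE 0.517, limma adjusted p = 0.0011). All 3 factors were separated from Col-0 in every library, and replicate 1 was their highest marbled library. ZAT7, another zinc finger gene, was listed at 0 in all Col-0 libraries and had 5.39, 5.37 and 14.8 scaled TPM in gun1M. With 5 added before the log, 5 of the 14 WRKY factors were called.

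Cold- and ABA-responsive genes protect cells against dehydration. Of 22 measured members, 14 were higher and none was lower, with a median of 1.37. COR15A, a plastid protein that stabilizes membranes, had 18.6, 88.4 and 80.3 scaled TPM in gun1M, against 0.222, 0 and 0.326 in Col-0, and led the called nuclear increases by size. Replicate 1 of gun1M had the lowest of the marbled values, all of them above Col-0. The difference was 5.47 (SE 0.735, limma adjusted p = 0.000499). LEA14, a late embryogenesis abundant protein, had 121, 221 and 209 scaled TPM in gun1M, against 14.8, 16.1 and 23.7 in Col-0, a difference of 3.24 (SE 0.439, limma adjusted p = 0.000517). Without gun1M replicate 2, 9 members of the list were higher and 1 was lower, and without Col-0 replicate 3, 9 were higher.

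The window before COR15A is shown because COR15A had the largest increase of the nuclear genes. It lies at chr2:17712331-17712580 on the minus strand of TAIR10.1 (RefSeq), and the capitals mark CCGAC on either strand, the drought and cold element.

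COR15A: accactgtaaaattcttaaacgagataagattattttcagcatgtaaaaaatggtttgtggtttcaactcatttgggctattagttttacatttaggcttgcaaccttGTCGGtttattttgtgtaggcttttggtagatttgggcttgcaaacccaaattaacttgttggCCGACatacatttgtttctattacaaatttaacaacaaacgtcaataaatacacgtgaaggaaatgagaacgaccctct

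The element begins 142 and 79 bases before the gene start of COR15A. It was present in 6 of 22 cold and ABA windows (27.3%), in 15.8% of the models called higher, in 11.4% of those called lower and in 13.2% of all nuclear models tested.

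Galactinol synthases make the donor for raffinose, a sugar that accumulates under stress. Of 5 measured genes of galactinol and raffinose synthesis, 4 were higher, with a median of 2.65. GolS1 had 46.4, 70.6 and 111 scaled TPM in gun1M, against 5.77, 3.81 and 3.0 in Col-0, a difference of 3.84 (SE 0.317, limma adjusted p = 2.57e-05). GolS3 had 8.91, 31.8 and 19.9 scaled TPM in gun1M, against 0.361, 0.693 and 0.223 in Col-0, a difference of 3.75 (SE 0.546, limma adjusted p = 0.000781). The marbled libraries of both were above Col-0, with replicate 1 lowest.

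Protective enzymes and pigments were higher in part. Of 13 antioxidant enzymes, 3 were higher and none was lower. CSD2, the copper/zinc superoxide dismutase of the plastid, had 56.0, 54.1 and 55.1 scaled TPM in gun1M, against 14.7, 13.7 and 14.1 in Col-0. Both groups were tight, and the difference was 1.89 (SE 0.109, limma adjusted p = 2.01e-06). Of 13 flavonoid and anthocyanin genes, 7 were higher, with a median of 1.07, but 3 were called without gun1M replicate 2, 4 without gun1M replicate 3 and 4 without Col-0 replicate 1. TT4, chalcone synthase at the entry of the pathway, had 13.0, 40.1 and 26.9 scaled TPM in gun1M, against 3.57, 7.18 and 6.55 in Col-0, a difference of 1.94 (SE 0.419, limma adjusted p = 0.00624). Of 13 genes of cuticular wax and lipid transfer, 6 were higher, with a median of 0.91. CER3, an enzyme of wax alkane synthesis, had 24.0, 58.9 and 44.1 scaled TPM in gun1M, against 8.53, 9.39 and 7.23 in Col-0, a difference of 2.12 (SE 0.348, limma adjusted p = 0.00145). Replicate 1 was the lowest marbled library for TT4 and for CER3.

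Outside the lists, BCB, a blue copper-binding protein of the cell surface, had 58.9, 41.7 and 118 scaled TPM in gun1M, against 0.758, 0.577 and 3.41 in Col-0, a difference of 4.87 (SE 0.466, limma adjusted p = 6.10e-05). ERD9, a glutathione transferase, had 15.8, 52.5 and 48.6 scaled TPM in gun1M, against 0.658, 0.772 and 2.00 in Col-0, a difference of 4.1 (SE 0.621, limma adjusted p = 0.000951). Both were among the largest increases by size, and their groups did not overlap.

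**Figure D3:**
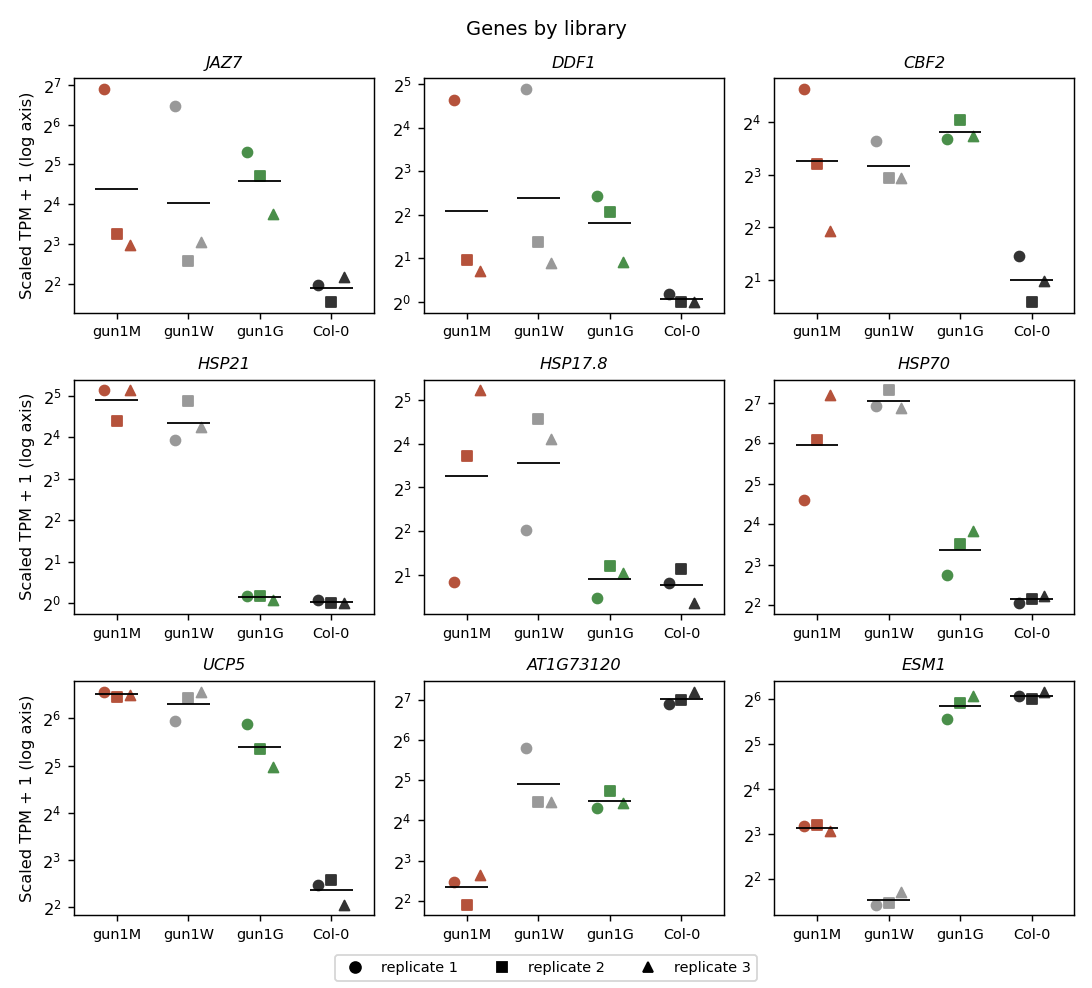
Scaled TPM + 1 on a log axis of genes from several classes in each gun1M, gun1W, gun1G and Col-0 library, with a symbol per replicate and the mean of the log2 values as a line. HSP21 has 20.1 to 34.0 in gun1M and at most 0.0609 in Col-0, whereas ESM1 has 7.29 to 8.21 in gun1M and 63.5 to 71.1 in Col-0.

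Among the lists, amino acid breakdown, starvation and auxin response had the largest shares of members lower in gun1M. The enzymes of amino acid breakdown feed carbon skeletons to respiration when sugar is short. Of 12 measured members, 8 were lower in gun1M and none was higher, with a median of −1.54 and list medians of −1.03, −1.72 and −1.65 in gun1M replicates 1, 2 and 3. IVD, isovaleryl-CoA dehydrogenase of leucine breakdown, had 15.3, 5.76 and 8.12 scaled TPM in gun1M, against 62.0, 32.9 and 52.4 in Col-0, a difference of −2.28 (SE 0.360, limma adjusted p = 0.00117). GDH1, glutamate dehydrogenase, had 9.41, 5.29 and 6.74 scaled TPM in gun1M, against 26.4, 20.2 and 30.1 in Col-0, a difference of −1.72 (SE 0.288, limma adjusted p = 0.00165). No library overlapped between the groups in either gene, and replicate 1 was the least lowered.

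Dark and sugar starvation genes were lower in 7 of 13 cases and higher in none, with a median of −1.07. SEN1, a senescence-associated gene induced in the dark, had 94.0, 29.0 and 39.7 scaled TPM in gun1M, against 638, 311 and 614 in Col-0, a difference of −3.35 (SE 0.504, limma adjusted p = 0.000923). DYL1 (DRM1), a dormancy-associated gene, had 12.8, 5.01 and 5.0 scaled TPM in gun1M, against 69.5, 50.1 and 52.5 in Col-0, a difference of −2.87 (SE 0.376, limma adjusted p = 0.000431). Replicate 1 held the highest marbled value in 12 of the 13 genes. The count depended on it and on other libraries, with 11 lower genes without gun1M replicate 1, 4 without gun1M replicate 2, 3 without gun1M replicate 3 and 4 each without Col-0 replicate 1 or 3. It was 4 with TPM as deposited and when nuclear genes were summed to the same total.

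The window before DYL1 is shown because DYL1 had the smallest adjusted p of the starvation genes whose window holds the marked motif. It lies at chr1:9935441-9935690 on the minus strand of TAIR10.1 (RefSeq), and the capitals mark GATAAG, the I-box, on the opposite strand.

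DYL1: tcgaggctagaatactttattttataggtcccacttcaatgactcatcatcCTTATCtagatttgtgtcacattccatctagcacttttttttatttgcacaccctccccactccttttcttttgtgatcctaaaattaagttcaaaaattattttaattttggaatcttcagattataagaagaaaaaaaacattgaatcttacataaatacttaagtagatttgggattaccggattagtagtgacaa

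The I-box begins 199 bases before the gene start of DYL1. It was present in 7 of the 13 windows of starvation genes (53.8%), in 12% of the models called higher, in 17.2% of those called lower and in 12.5% of all nuclear models tested.

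Auxin-responsive genes, which accompany cell elongation, were lower in 9 of 19 cases and higher in 1, with a median of −0.96. IAA29 had 7.05, 6.06 and 3.6 scaled TPM in gun1M, against 51.3, 34.7 and 34.5 in Col-0, a difference of −2.66 (SE 0.360, limma adjusted p = 0.000517). IAA7 had 76.4, 48.0 and 62.9 scaled TPM in gun1M, against 153, 143 and 167 in Col-0, a difference of −1.31 (SE 0.194, limma adjusted p = 0.000831). Both encode repressors of auxin signaling. IAA5, the exception, had 2.22, 1.29 and 1.95 scaled TPM in gun1M, against 0.0838, 0.173 and 0 in Col-0, a difference of 1.37 (SE 0.216, limma adjusted p = 0.00117). Members of this list thus differed in direction. The wider SAUR-like family of the annotation was split, with 8 of 49 models higher and 7 lower.

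XTH15, which remodels xyloglucan in the cell wall, was among the largest decreases, with 50.5, 11.5 and 10.4 scaled TPM in gun1M, against 598, 438 and 378 in Col-0. The difference was −4.58 (SE 0.526, limma adjusted p = 0.000184). Of 14 measured genes of its family, 3 were lower and 2 higher. PAR1, a regulator of shade responses, had 2.43, 1.76 and 1.66 scaled TPM in gun1M, against 37.1, 31.1 and 24.8 in Col-0, a difference of −3.43 (SE 0.316, limma adjusted p = 5.52e-05). Among 13 greening regulators, 3 were lower and 2 higher. PIL5 (PIF1), a phytochrome-interacting repressor of greening, had 2.50, 3.89 and 2.98 scaled TPM in gun1M, against 10.1, 9.76 and 12.2 in Col-0, a difference of −1.51 (SE 0.208, limma adjusted p = 0.000576). HYH, a homolog of the light regulator HY5, had 18.4, 13.1 and 27.6 scaled TPM in gun1M, against 0.591, 3.33 and 2.49 in Col-0, a difference of 2.78 (SE 0.342, limma adjusted p = 0.00028). Both genes were separated from Col-0 in all 3 marbled libraries, but the list had no common direction, with a median of −0.20.

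AT1G73120, annotated as an F-box/RNI superfamily protein, had the largest decrease of the nuclear models whose groups did not overlap. Its levels were 4.55, 2.76 and 5.23 scaled TPM in gun1M, against 119, 126 and 146 in Col-0, and they were 54.7, 21.1 and 20.9 in gun1W and 18.8, 25.4 and 20.7 in gun1G. Marbled seedlings thus had less of this transcript than white, green or wild-type ones, with no overlap. The difference from Col-0 was −4.69 (SE 0.320, limma adjusted p = 6.82e-06). Its window is shown for this reason. It lies at chr1:27498063-27498312 on the minus strand of TAIR10.1 (RefSeq), and the capitals mark CACGTG, the G-box.

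AT1G73120: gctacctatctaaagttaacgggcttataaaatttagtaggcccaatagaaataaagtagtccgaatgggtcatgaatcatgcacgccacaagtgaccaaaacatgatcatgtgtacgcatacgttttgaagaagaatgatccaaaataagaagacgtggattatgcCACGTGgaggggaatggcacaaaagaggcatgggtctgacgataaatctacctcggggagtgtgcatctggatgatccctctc

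The G-box begins 83 bases before the gene start of AT1G73120.

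Most photosynthesis genes were not called. Light harvesting proteins bind chlorophyll and pass light energy to the photosystems. Of 21 measured members, 4 were higher and none was lower, and the median was −0.15, or 0.11 with TPM as deposited, 0.07 when nuclear genes were summed to the same total and 0.02 without gun1M replicate 3. The list median was 0.12, −0.08 and −0.49 in gun1M replicates 1, 2 and 3. CAB3 (LHCB1.2), a classical marker of retrograde signaling, had 990, 944 and 686 scaled TPM in gun1M, against 1289, 1582 and 1450 in Col-0. All marbled libraries were below Col-0, and the difference of −0.73 (SE 0.176, limma adjusted p = 0.0102) fell short of 2-fold. The 4 higher members were minor ones, with Lhca5 at 24.6, 28.7 and 19.3 scaled TPM in gun1M, against 9.60, 10.3 and 8.99 in Col-0, a difference of 1.23 (SE 0.194, limma adjusted p = 0.00117). The other 3 were Lhca6, AT1G76570 (LHCB7) and LHCB4.3, the last of them named after its values were seen. LHCB1 genes are near-identical copies, so their values are uncertain.

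Photosystem I subunits were lower in 2 of 12 cases and higher in none, with a median of −0.26. Both called genes encode the D subunit of the stromal side. PSAD-2 had 133, 78.4 and 154 scaled TPM in gun1M, against 399, 481 and 498 in Col-0, a difference of −1.96 (SE 0.359, limma adjusted p = 0.00267). PSAD-1 had 445, 358 and 529 scaled TPM in gun1M, against 965, 984 and 886 in Col-0, a difference of −1.10 (SE 0.177, limma adjusted p = 0.00127). The call count was 4 without gun1M replicate 3, and 1 without gun1M replicate 2 or with TPM as deposited. Of 13 photosystem II subunits, 2 were higher and 1 was lower. NPQ4 (PSBS), the sensor of non-photochemical quenching, had 318, 348 and 241 scaled TPM in gun1M, against 126, 160 and 130 in Col-0, a difference of 1.11 (SE 0.199, limma adjusted p = 0.00242). PSBR, a subunit near the oxygen-evolving complex, had 788, 617 and 1141 scaled TPM in gun1M, against 1746, 1727 and 1805 in Col-0, a difference of −1.10 (SE 0.239, limma adjusted p = 0.0066). The call of PSBR was lost with TPM as deposited, nuclear genes summed to the same total, quantile normalization, the share of AT3G06365 as a covariate and without gun1M replicate 2. The summed photosystem II subunits were at 6827 to 8554 scaled TPM in gun1M, against 10230 to 11250 in Col-0, although the list median was 0.26. The summed photosystem I subunits were at 6541 to 7873 scaled TPM in gun1M, against 9184 to 9530 in Col-0. Both sums were thus lower in all 3 marbled libraries on this scale, but with TPM as deposited the groups overlapped, at 6294 to 9426 in gun1M and 8147 to 9219 in Col-0 for photosystem II and at 6306 to 7207 in gun1M and 6946 to 7808 in Col-0 for photosystem I. When total nuclear TPM was set equal, the photosystem I sums overlapped and those of photosystem II did not.

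None of 13 electron carriers and ATP synthase subunits, 24 plastid ribosomal proteins or 15 import components was called by limma. Over all 17675 nuclear models, limma gave 7504 an unadjusted p under 0.05 in either direction, so the following counts stand beside a large background. At an unadjusted p under 0.05, 3 electron carriers and ATP synthase subunits were higher and 0 lower, 7 plastid ribosomal proteins were higher and 3 lower, and 2 import components were higher and 5 lower. Of 19 Calvin cycle genes, 4 were higher and 1 was lower, with a median of 0.41, and 10 were higher and 1 lower at an unadjusted p under 0.05. GAPA-2, a glyceraldehyde 3-phosphate dehydrogenase subunit, had 187, 242 and 106 scaled TPM in gun1M, against 49.5, 69.7 and 57.1 in Col-0, a difference of 1.52 (SE 0.292, limma adjusted p = 0.00345). In tetrapyrrole synthesis, the route to chlorophyll and heme, 2 of 27 genes were higher and 1 was lower. HEMA1, glutamyl-tRNA reductase at the start of the route, had 72.4, 60.9 and 78.8 scaled TPM in gun1M, against 24.7, 31.8 and 38.9 in Col-0, a difference of 1.14 (SE 0.205, limma adjusted p = 0.00234). PORB, which reduces protochlorophyllide, had 45.1, 31.8 and 25.5 scaled TPM in gun1M, against 108, 97.5 and 114 in Col-0, a difference of −1.65 (SE 0.274, limma adjusted p = 0.0016).

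Of 7 light stress proteins related to light harvesting, 3 were higher and none was lower. ELIP2, an early light-induced protein that protects against excess light, had 13.2, 48.3 and 47.7 scaled TPM in gun1M, against 0.256, 0 and 0.165 in Col-0, a difference of 4.83 (SE 0.478, limma adjusted p = 7.72e-05). ELIP1 had 7.18, 29.5 and 29.6 scaled TPM in gun1M, against 0.672, 0.917 and 0.198 in Col-0, a difference of 3.65 (SE 0.500, limma adjusted p = 0.000548). Replicate 1 was the lowest marbled library for both.

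Cell type markers were set beside these classes. RBCS1A, the abundant mesophyll transcript, had 30750, 24060 and 20810 scaled TPM in gun1M, against 20630, 22840 and 21560 in Col-0, so mesophyll transcripts were present in both. Other mesophyll markers did not all follow it. Light harvesting proteins summed to 23590 to 34540 scaled TPM in gun1M and 32680 to 35050 in Col-0, and CAB3 was below Col-0 in every marbled library. These values do not measure the share of mesophyll. Of 12 root markers, 9 passed the filter and 1 was lower. The root markers summed to 93.4 to 177 scaled TPM in gun1M and 308 to 472 in Col-0, of which PRP3 held 55.1 to 131 and 267 to 425. WOX5, a marker of the root tip, was at 0, 0.940 and 1.67 in gun1M and 0.0882, 0 and 0.171 in Col-0. Root transcripts were thus present in samples labelled as cotyledon. The 9 epidermis and stomatal markers gave no call and summed to 144 to 309 in gun1M and 340 to 351 in Col-0. The 4 measured of 8 shoot meristem markers gave none either, with sums of 19.0 to 25.6 in gun1M and 36.0 to 41.1 in Col-0. The part of these marker differences in the gene classes was not tested.

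The 3 marbled libraries had the widest median spread of the 4 groups. The median SD over nuclear models was 0.264 (log2) in gun1M, 0.225 in gun1W, 0.208 in gun1G and 0.192 in Col-0, a description with no test. The range over the 3 libraries exceeded 1 (log2) in 2374 models (13.4%) in gun1M and in 1043 (5.90%) in Col-0. Pairs of marbled libraries differed by a median of 0.272 to 0.320, against 0.189 to 0.241 in Col-0. Replicates 1 and 3 of gun1M were the farthest of these pairs. Among the genes called higher, 32.8% had a range over 1 in gun1M, and among those called lower 33.4% did.

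No single library was highest throughout. Over all nuclear models gun1M replicates 1, 2 and 3 held the highest marbled value in 30.9, 31.4 and 37.8%. Replicate 1 held it in 18 of 21 light harvesting genes, in 12 of 13 starvation genes and in 10 of 12 genes of amino acid breakdown. Replicate 2 held it in 14 of 18 cytosolic ribosomal protein genes, which were otherwise not called. Replicate 3 held it in 14 of 15 small heat shock genes, in 13 of 13 cytosolic chaperones and in 11 of 13 chaperones of the endoplasmic reticulum. The order of the marbled libraries thus differed between gene classes.

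**Figure D4:**
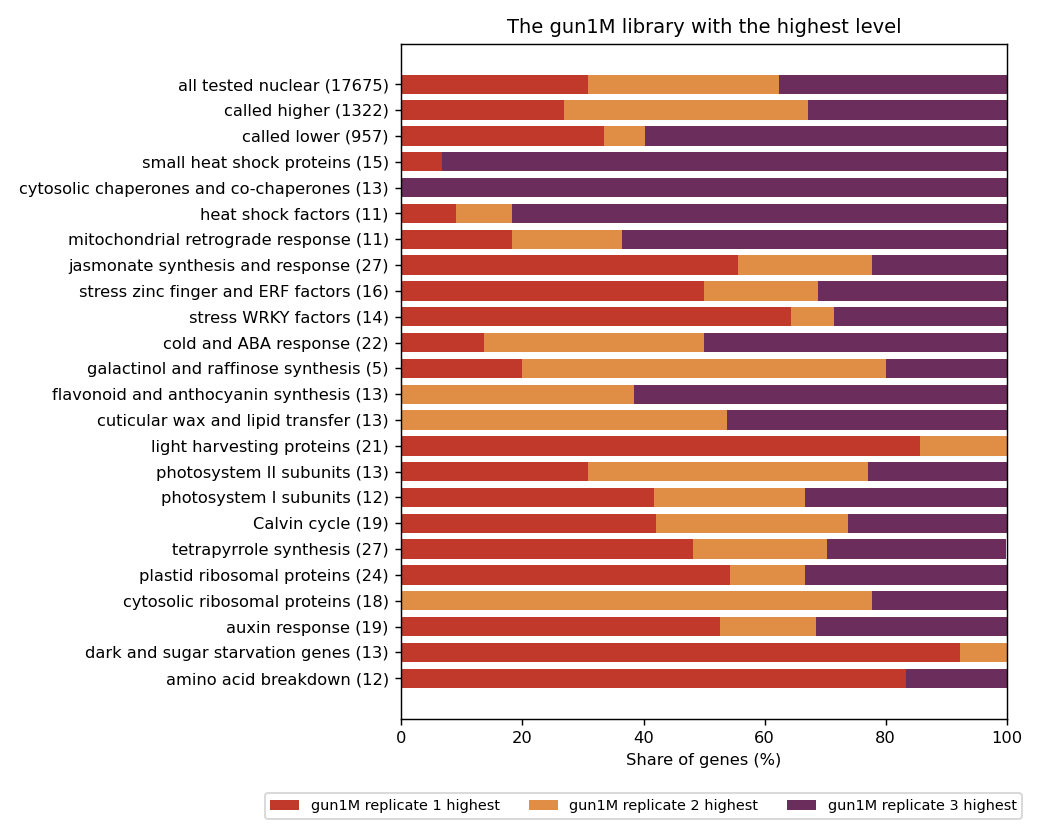
Percent of the measured members of each gene list whose highest gun1M value was in replicate 1, 2 or 3, with all nuclear gene models for reference at 30.9, 31.4 and 37.8%. Light harvesting genes peak in replicate 1 and the chaperone lists in replicate 3.

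The widest single genes were chosen by the size of their range over gun1M, so the values are a description. MBF1C, a coactivator of the heat response, had 0.154, 2.34 and 16.1 scaled TPM in gun1M, against 1.87, 1.81 and 2.58 in Col-0. The marbled libraries lay below, within and above the wild-type range. Others were non-coding or uncharacterized, such as AT5G01145 with 0, 17.64 and 0 and AT2G00340 with 31.0, 0 and 36.7 scaled TPM in gun1M.

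Against gun1G, the green seedlings of the same genotype, 208 nuclear models were higher in gun1M (1.18%) and 123 lower (0.696%). The counts moved to 101 and 51 when gun1G replicate 2 was left out, to 103 and 54 when gun1G replicate 3 was, and to 107 and 61 when gun1M replicate 2 was. With 5 added before the log there were 77 and 32, and with TPM as deposited 296 and 44. Without gun1G replicate 1 there were 195 lower models, and without gun1M replicate 3 there were 200. Heat shock genes were on the higher side here too, with 9 of 15 small heat shock proteins and 5 of 13 cytosolic chaperones called. HSP21 had 34.0, 20.1 and 33.9 scaled TPM in gun1M, against 0.123, 0.124 and 0.0603 in gun1G. Of the 27 jasmonate genes, 2 were higher and 1 was lower than in gun1G. AOS, which was not called, had 63.9, 106 and 74.3 scaled TPM in gun1M, against 72.2, 54.0 and 47.4 in gun1G, and the groups overlapped. Higher than in gun1G were 3 of 11 mitochondrial retrograde genes, 2 of 16 zinc finger and ERF factors and 1 of 14 WRKY factors. Galactinol and raffinose synthesis had 1 of 5 higher, and cold and ABA genes had 0 of 22 higher and 1 lower. No gene of amino acid breakdown, starvation or auxin response was called, with medians of −0.18, −0.01 and −0.52. Flavonoid and wax genes gave no call either. On the lower side stood 6 of 16 genes of aliphatic glucosinolate synthesis, the defense compounds of the mustard family, with a median of −0.94 for the list. CYP79F1, which makes the side-chain oximes, had 0.703, 1.42 and 1.80 scaled TPM in gun1M, against 8.37, 7.53 and 9.55 in gun1G and 0.190, 1.4 and 0.778 in Col-0. In gun1M it lay within or near the wild-type range, and it was gun1G that was high.

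Against gun1W, the white seedlings, 17 nuclear models were higher in gun1M (0.0962%) and 8 lower (0.0453%). With TPM as deposited, 18 were higher and 2256 lower, so the count of decreases depended on the scaling. With 5 added before the log there were 6 and 4. The counts were 6 and 4 without gun1W replicate 1, 9 and 3 without replicate 2, 9 and 5 without replicate 3, 4 and 2 without gun1M replicate 2, 24 and 17 without gun1M replicate 3, and 13 and 7 without gun1M replicate 1. ESM1, which sets the products that form from glucosinolates, was called in every comparison. It had 7.98, 8.21 and 7.29 scaled TPM in gun1M, 1.68, 1.74 and 2.27 in gun1W, 46.1, 59.6 and 66.0 in gun1G and 66.2, 63.5 and 71.1 in Col-0. Marbled seedlings lay between white and green ones, without overlap to either, and the difference from Col-0 was −2.94 (SE 0.151, limma adjusted p = 1.55e-06).

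The place of each marbled library between the green and the white mutant was measured over 892 nuclear models called between gun1W and gun1G in a fit without gun1M, with gun1G at 0 and gun1W at 1. The median place was 0.584, 0.688 and 0.712 in gun1M replicates 1, 2 and 3, against −0.0549 to −0.00916 in Col-0. For the 528 models higher in gun1W the marbled libraries stood at 0.587, 0.734 and 0.811, and for the 364 models lower in gun1W at 0.570, 0.640 and 0.570. By this median every marbled library was nearer to white than to green, replicate 1 the least over all 892 models. The place was taken on the main scaling only, which multiplied gun1W libraries by 0.538 to 0.691 and gun1M libraries by 0.908 to 1.16. Its dependence on the scaling was not tested. The ranges of single genes were wide, with quartiles of 0.324 and 0.814 in replicate 1.

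**Figure D5:**
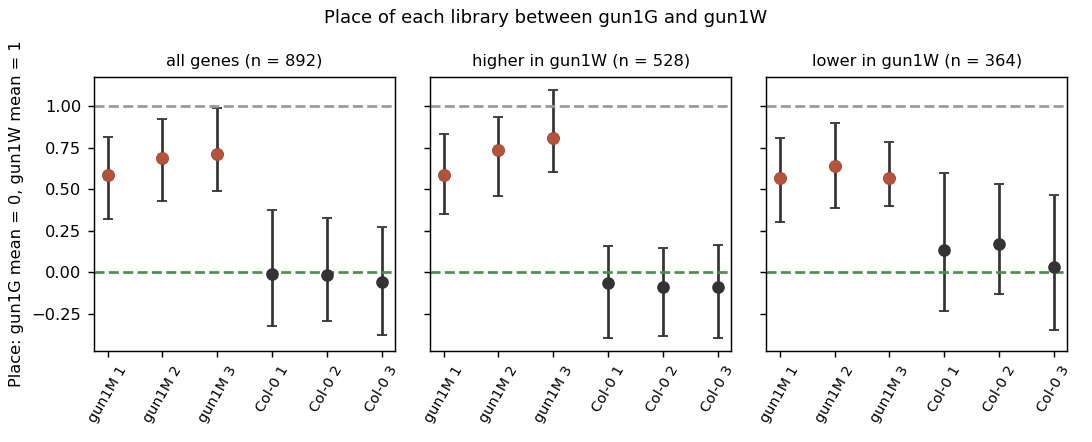
Median place of each gun1M and Col-0 library between gun1G (0) and gun1W (1), with quartiles as bars, over all 892 models and over those higher and lower in gun1W, called without the gun1M libraries. The gun1M medians lie between 0.570 and 0.811 in the panels.

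Some nuclear models share their sequence with an organelle genome. For 136 models at least 50% of the 50-base words also occur in the mitochondrial genome, and 134 of them lie on chromosome 2 between 3239693 and 3505260 (TAIR10.1). Of these 136, 48 were higher in gun1M than in Col-0 and none was lower, with a median of 0.88. Their reads could stem from the mitochondrion, whose own 83 tested models were higher in 28 cases (33.7%) with a median of 0.82. Mitochondrial transcripts held 26.9, 25.5 and 18.1% of TPM in gun1M, against 21.01 to 21.4% in Col-0. AT5G31909, the only plastid-like model, was also higher. Without these models 1273 nuclear models were higher and 957 lower.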

How the data were processed

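RNA of 12 libraries, 3 each of gun1M, gun1W, gun1G and Col-0, was read after rRNA depletion with a stranded kit. The deposited values are TPM of single transcripts, estimated by the authors with Salmon on AtRTD3, and the submitters' processing notes also name Trimmomatic, FastQC, STAR and TAIR10, with versions not given in the sources used here. A second deposited table repeats plastid transcripts and was not used. TPM of 168507 transcripts was summed to 40215 gene models by the transcript name without its last number. Names that join models (402 tested) and names absent from the reference (213 tested) were kept out of the nuclear counts. A model was tested if 3 or more libraries had a TPM of 1 or more. Each library was scaled by its median log2 ratio over 12490 nuclear genes.

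Scaled TPM + 1 was log2-transformed and fitted by limma 3.58.1 (lmFit, contrasts, eBayes with a trend) in R 4.3.3, with all 12 libraries and the group as the only term, with the Benjamini-Hochberg adjustment over 18373 models. On simulated libraries for gun1M against Col-0 over 18373 genes, the share of 50 changed genes recovered was 90% at a log2 change of −2, 86% at −1.5, 86% at 1.5 and 96% at 2, and the fit called 0.033% of 18173 unchanged genes. Changed genes were drawn among those with higher Col-0 levels. The simulated libraries of all groups had the same spread for a given gene, whereas the real gun1M libraries had the widest median spread. The recovered shares may therefore not hold for the data.

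The members and the 55 gene lists were chosen with earlier results of these data known. Of the list entries, 762 matched their symbol in the RefSeq annotation, 19 without a symbol were retained, and 15 whose symbol differed were dropped. Named genes were the 12 largest increases and 12 largest decreases with groups that do not overlap and a mean TPM of at least 5, up to 4 members of each list by adjusted p, GUN1, LHCB1.2, the 10 models widest over gun1M, and 5 increases and 5 decreases each against gun1G and gun1W. LHCB4.3, organelle-like models, product families and non-coding models were named after their values were seen. Windows of 250 bases before the RefSeq gene start were taken from TAIR10.1 for all 17675 nuclear models. The windows of HSP21, AOS, UCP5 and DYL1 were printed only because they hold the marked motif, so its presence there was fixed by the choice.

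Alternatives were the value added before the log, the filter, the scaling, a replicate block, the share of AT3G06365 as a covariate, library weights, a fit of 6 libraries, eBayes without a trend and each library left out. Leaving out gun1W or gun1G libraries, or organelle-like models, was added after seeing the data. Python 3.11.15, numpy 2.4.6, pandas 2.3.3 and matplotlib 3.10.9 were used.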

Additional observations from a re-analysis of the deposited data

Results flagged for a closer look

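Genes whose difference was called between gun1M and another group of gun1-102 seedlings are given here, as the 5 largest in each direction with groups that do not overlap, from the limma fit. Against gun1G, the largest increases in gun1M were all small heat shock genes, HSP21 at 4.75, HSP18.2 at 4.54, AT1G53540 (HSP17.6C) at 3.14, HSP17.6II (HSP17.6) at 3.10 and AT5G51440 (HSP23.5) at 3.01. The largest decreases were ESM1 at −2.71, XTH15 at −2.27, the uncharacterized RNA AT3G00880 at −2.26, AT1G73120 at −2.15 and CYP79F1 at −2.06.

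Against gun1W, the largest increases were AT2G07732 at 2.77, AT3G32990 at 2.3, the bHLH factor AT3G21330 at 1.66, the thionin gene AT1G66100 at 1.62 and ESM1 at 1.61. AT2G07732 lies in the stretch of chromosome 2 that resembles the mitochondrial genome and is annotated as a large subunit of Rubisco, so its reads cannot be told apart from organelle reads. The largest decreases were AT1G73120 at −2.57, the lipid-transfer gene AT1G05450 at −1.54, NAC103, a factor of the unfolded protein response, at −1.54, the plastid chaperonin Cpn60beta2 at −1.24 and the AAA-type ATPase AT5G20000 at −1.22. Cpn60beta2 had 23.9, 37.9 and 44.2 scaled TPM in gun1M, against 89.9, 83.2 and 73.8 in gun1W. Every one of these 20 differences passed an adjusted p under 0.05 in the limma fit.

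Outside the nuclear comparison, 28 of 83 mitochondrial gene models were higher in gun1M than in Col-0 and none was lower. Mitochondrial transcripts held 26.9, 25.5 and 18.1% of TPM in gun1M, against 21.01 to 21.4% in Col-0, with replicate 3 below the others. Single outlying samples were not looked for by a test within the groups of 3 libraries.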

How the results depend on the processing

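With 5 added before the log, 587 nuclear models were higher and 368 lower in gun1M than in Col-0, 77 higher and 32 lower than in gun1G, and 6 higher and 4 lower than in gun1W, and the median SD over gun1M was 0.145. With TPM as deposited, 514 models were lower than in Col-0, 44 lower than in gun1G and 2256 lower than in gun1W, and setting the summed nuclear TPM equal in all libraries gave 634 lower than in Col-0. Leaving out 1 library at a time gave 1113 to 1412 higher and 595 to 1290 lower models against Col-0, 101 to 304 higher and 51 to 200 lower against gun1G, and 4 to 24 higher and 2 to 17 lower against gun1W. The cause of these shifts was not tested. The replicate block gave 1337 higher and 940 lower models against Col-0, 209 and 123 against gun1G, and 8 and 3 against gun1W. Apart from the values given, the counts stayed within 1.5 times under the alternatives run for each comparison, among them 1753 higher and 1419 lower models with 0.1 added against Col-0. Same-numbered gun1M and Col-0 libraries correlated in their deviations at 0.057, 0.184 and 0.227, against −0.234 to 0.073 for different numbers. For gun1M and gun1G the values were 0.107, −0.213 and 0.241, against −0.312 to 0.241 for different numbers. For gun1M and gun1W they were 0.329, 0.045 and −0.288, against −0.436 to 0.463. Whether the numbers pair the samples was not tested. Of 141 called named genes, 91 kept their call under all 18 settings, 119 under every setting that left out a gun1M or Col-0 library, and 0 reversed. Depth is unknown, so counting error at low values could not be measured.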

Other observations

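Product names in the RefSeq annotation that cover 20 or more tested models gave further classes, chosen after their values were seen and given as counts without a test, beside 7.48% of nuclear models higher and 5.41% lower. MATE efflux proteins, which export organic compounds, were higher in gun1M than in Col-0 in 12 of 30 cases and lower in none. Integrase-type DNA-binding proteins, the AP2/ERF factors, were higher in 17 of 47 and lower in 5. HSP20-like chaperones were higher in 8 of 23 and lower in 3. Of these, the 9 that are also in the list of small heat shock proteins had 6 higher and none lower, and the other 14 had 2 higher and 3 lower. Calcium-binding EF-hand proteins were higher in 9 of 30 and lower in 1, and UDP-glycosyltransferases were higher in 11 of 60 and lower in none. Disease resistance proteins of the TIR-NBS-LRR class were higher in 7 of 35 and lower in none. On the lower side, bifunctional inhibitor and lipid-transfer proteins had 10 of 49 lower and 3 higher, hydroxyproline-rich glycoproteins 9 of 50 lower and 1 higher, and bHLH factors 9 of 68 lower and 3 higher. SAUR-like auxin-responsive proteins were split, with 8 of 49 higher and 7 lower. SAUR genes are close copies, so reads could be shared between them.

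Non-coding models were measured because rRNA rather than poly(A) was selected against. Of 203 lncRNA models 14 were higher and 8 lower, close to the share among 17064 protein-coding models (1269 higher and 931 lower). Of 20 miRNA precursor models 2 were higher and none was lower. MIR824 had 7.84, 14.8 and 12.7 scaled TPM in gun1M, against 0.726, 1.06 and 0.734 in Col-0, a difference of 2.76 (SE 0.355, limma adjusted p = 0.000387). MIR159a had 15.65, 13.1 and 3.15 scaled TPM in gun1M, against 4.40, 2.01 and 1.96 in Col-0, a difference of 1.45 (SE 0.433, limma adjusted p = 0.0269), and here replicate 3 of gun1M lay within the Col-0 range. Precursor reads do not measure the mature miRNA. Of 89 transcribed pseudogenes 18 were higher, but 13 of these 18 resemble an organelle genome, and without such models 5 of 65 were higher.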
